A study of Mus musculus with 24 samples.

Results

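Map3k1, Map2k1, Map2k4, Mapk10, Mapk12 and Mapk14 encode kinases of the mitogen-activated protein (MAP) kinase cascades, and were the 6 such genes taken, by gene symbol, from the 757 probes of a mouse neuroinflammation panel. The 6 were picked with earlier results from these samples known. Mapk12 in addition was singled out in the study's results for RT-TMZ + Shef6 EV against RT-TMZ + Veh, so its values in that comparison are described without a test. The study's discussion names it for Shef6 EV with a tumor too. Which values led to the choice of the other 5 is not recorded. Adjusted p-values below therefore say where a gene lies among the 757 probes and are not independent evidence about the group. Each gene was read by 1 probe, and levels are never compared between genes.

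A MAP kinase cascade is a relay of protein kinases. A MAP kinase kinase kinase (MAP3K) phosphorylates a MAP kinase kinase (MAP2K), which in turn activates a MAP kinase of the ERK, JNK or p38 branch. The ERK branch is best known for growth factor and synaptic signaling, whereas the JNK and p38 branches respond to stress and inflammatory cytokines, in neurons as well as in glia. These proteins are controlled mainly by phosphorylation, which a transcript count does not read.

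The 24 samples came from separate male C57BL/6J mice aged 27 weeks and formed 7 groups. The study used mice of both sexes, and its text on these expression data does not name the sex. Control + Veh mice (n = 4) had neither tumor nor treatment and received vehicle. RT-TMZ + Veh mice (n = 4) received cranial irradiation in 3 fractions of 9 Gy per the labels (the study's methods give a slightly lower dose) and temozolomide at 25 mg/kg during and 66.7 mg/kg after irradiation, then vehicle. RT-TMZ + UCI-191 EV mice (n = 3) received the same chemoradiotherapy followed by extracellular vesicles (EVs) from UCI-191, a human neural stem cell line, and in RT-TMZ + Shef6 EV mice (n = 3) the EVs came from Shef6, another such line. The same 3 arms were run in mice that also carried a brain tumor grown from CT2A cells, a mouse glioma line, and are called CT2A + RT-TMZ + Veh (n = 4), with 3 mice in each of its EV arms. No group analysed here had a tumor without RT-TMZ, or EVs without RT-TMZ. The labels call the tissue brain, the study's text on these expression data names the hippocampus (prefrontal cortex was collected too), and whether a sample held tumor tissue is not given in the sources used here.

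Counts implied by the deposited values summed to 1009122 to 1477860 per sample in 20 samples and to 862060 to 935991 in the 4 CT2A + RT-TMZ + Veh samples, whose scaling factors were 1.32 to 1.42 against 0.836 to 1.18 elsewhere. Neuronal genes were well measured in each sample, with a summed log2 level of 16.99 to 17.35 over 16 genes, and 8 to 10 of 11 T and NK cell genes stayed below background in all samples of a group. A set of 6 samples, 1 of them also among these 4, stood apart by 2 transcription factor genes that lie downstream of MAP kinases. They were all 3 CT2A + RT-TMZ + UCI-191 EV samples, RT-TMZ + Shef6 EV replicates 1 and 2, and CT2A + RT-TMZ + Veh replicate 2. In these 6, Mef2c lay at 13.71 to 14.38 against 11.67 to 12.91 in the other 18, and Jun at 9.92 to 10.89 against 11.17 to 11.88. All values below are log2 normalized counts, fold changes are differences on that scale, and a gene passed the test at a Benjamini-Hochberg adjusted p under 0.05 over the 757 probes in limma.

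Map3k1 was the member that varied most between groups. This MAP3K, also called MEKK1, acts mainly upstream of JNK. Its level was low in tumor-bearing mice given vehicle and lay near that of the other groups in tumor-bearing mice given either EV. In CT2A + RT-TMZ + Veh the 4 samples read 7.28, 7.39, 7.34 and 7.68 (mean 7.42 ± 0.18, SD, n = 4). The other 20 samples read 7.94 to 8.50, so no sample of any other group reached down into that range.

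**Figure D1:**
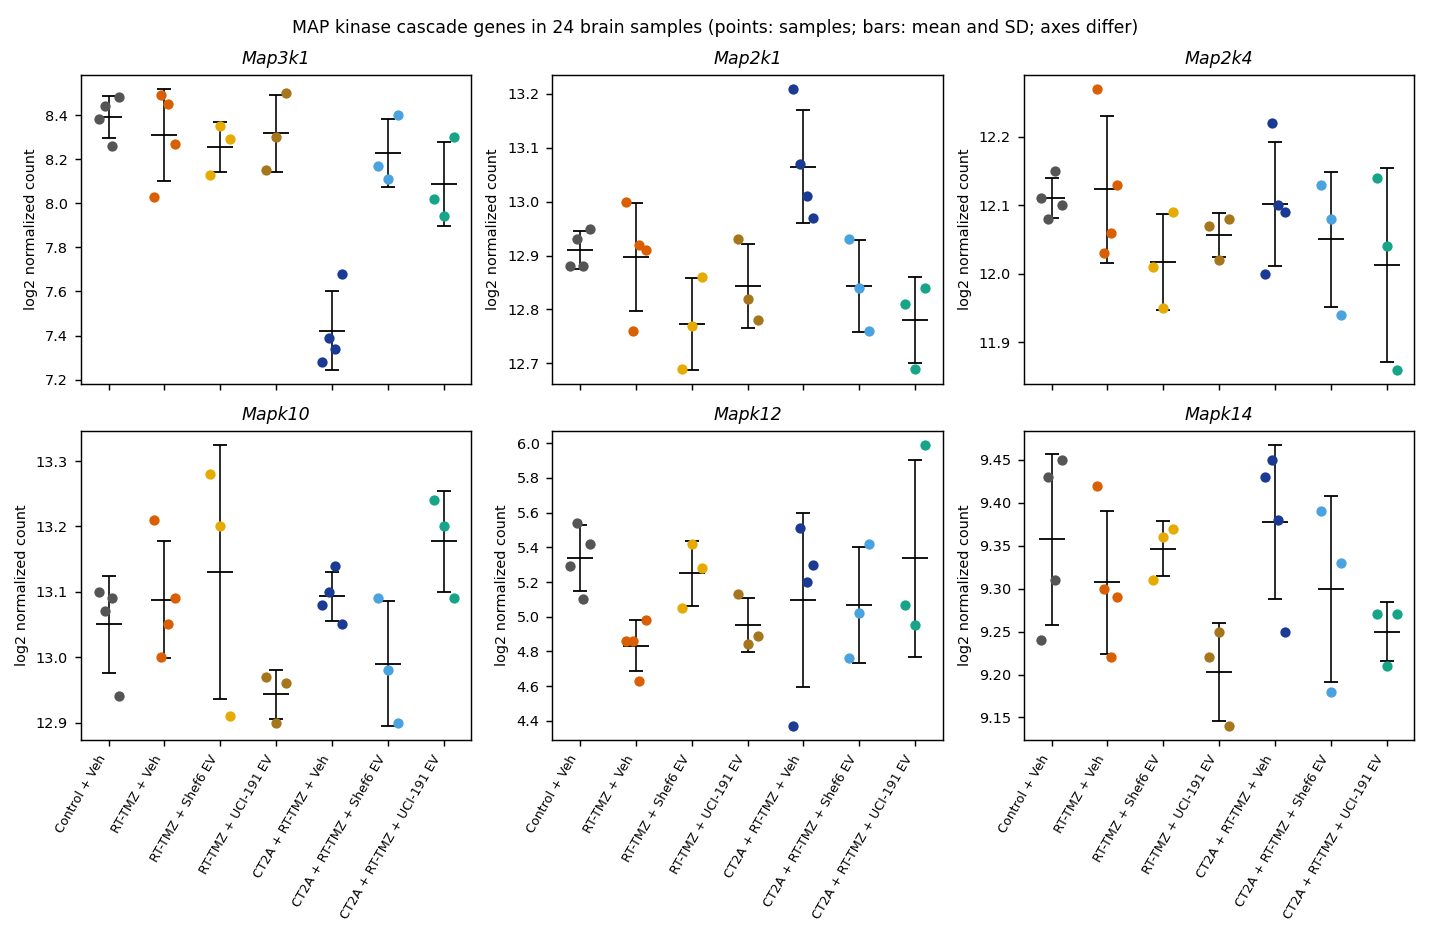
Level of each of the 6 genes (log2 normalized count, 1 panel per gene with its own axis) in every sample of the 7 groups, with the group mean and SD. In the Map3k1 panel all 4 CT2A + RT-TMZ + Veh samples, at 7.28 to 7.68, lie below the other 20, at 7.94 to 8.50, while the groups of Map2k4, Mapk10 and Mapk14 lie close to each other.

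Without a tumor, Map3k1 read 8.38, 8.44, 8.26 and 8.48 in Control + Veh (8.39 ± 0.10, n = 4). RT-TMZ + Veh samples read 8.03, 8.49, 8.45 and 8.27 (8.31 ± 0.21, n = 4). These groups overlapped, as did the EV groups without tumor, at 8.13, 8.35 and 8.29 with Shef6 EV and 8.15, 8.3 and 8.50 with UCI-191 EV. With a tumor, the 3 CT2A + RT-TMZ + Shef6 EV samples read 8.17, 8.11 and 8.40 (8.23 ± 0.15, n = 3) and the 3 CT2A + RT-TMZ + UCI-191 EV samples read 8.02, 7.94 and 8.3 (8.09 ± 0.19, n = 3). In the order of the group means, CT2A + RT-TMZ + Veh was lowest, and 5 of the 6 neighboring pairs overlapped. Only the step from CT2A + RT-TMZ + Veh to CT2A + RT-TMZ + UCI-191 EV had no overlap.

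Compared with Control + Veh, Map3k1 fell by 0.97 in CT2A + RT-TMZ + Veh (standard error 0.12, 1.96-fold lower, adjusted p = 0.00355). In that comparison 21.1% of all probes passed the test, 28.5% had groups without overlap, and the median of all probes was -0.06. Leaving out any 1 of the 8 samples kept the call, with adjusted p between 0.000504 and 0.0228. Without CT2A + RT-TMZ + Veh replicate 2, a sample high in Mef2c, the fold change was -0.96 (adjusted p = 0.00372).

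Compared with RT-TMZ + Veh, the mice given the same chemoradiotherapy and vehicle without a tumor, Map3k1 fell by 0.89 in CT2A + RT-TMZ + Veh (standard error 0.14, 1.85-fold lower, adjusted p = 0.0323), where 10.6% of probes passed and 21.1% had groups without overlap. This call was lost without RT-TMZ + Veh replicate 2 (adjusted p = 0.113), 3 (0.111) or 4 (0.0883), or without CT2A + RT-TMZ + Veh replicate 3 (0.0956), at fold changes of -0.83 to -0.90.

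Within tumor-bearing mice, Map3k1 rose by 0.80 with Shef6 EV compared with vehicle (standard error 0.15, 1.75-fold higher, adjusted p = 0.0282), and 5.02% of probes passed. The call was lost without any 1 of the 3 Shef6 EV samples (adjusted p = 0.107, 0.111 and 0.143) or without CT2A + RT-TMZ + Veh replicate 1 (0.0682) or 3 (0.0885). It was also lost under median centring (0.52, adjusted p = 0.0678). With UCI-191 EV the difference was 0.66 (standard error 0.15, 1.58-fold higher, adjusted p = 0.0613), which missed the threshold although the groups did not overlap, in a comparison where 1.45% of probes passed. Without CT2A + RT-TMZ + Veh replicate 2 or 4 its adjusted p was 0.0433 or 0.0249. Groups without overlap were seen in 31.7% of probes in the Shef6 comparison and 24.6% in the UCI-191 comparison.

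In mice without a tumor, the same EVs gave Map3k1 differences of -0.05 (Shef6) and 0.01 (UCI-191) from RT-TMZ + Veh. The difference between the Shef6 EV effects with and without a tumor was tested itself and was 0.86 (standard error 0.19, adjusted p = 0.0250), with 6.08% of probes passing. For UCI-191 EV it was 0.66 (standard error 0.20, adjusted p = 0.0935), with 1.85% passing. The Shef6 contrast lost its call without any 1 of 7 of its 14 samples, which were RT-TMZ + Veh replicates 2, 3 and 4, RT-TMZ + Shef6 EV replicates 1 and 2, CT2A + RT-TMZ + Veh replicate 3 and CT2A + RT-TMZ + Shef6 EV replicate 3 (adjusted p = 0.0517 to 0.0797). Both contrasts use the same vehicle groups and are not independent of each other. Between the 2 EV lines in tumor-bearing mice, Map3k1 differed by -0.14 (UCI-191 minus Shef6, standard error 0.13, adjusted p = 0.527).

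Other values moved with Map3k1. The summed level of 8 endothelial genes was 10.94 to 11.27 in CT2A + RT-TMZ + Veh and 11.66 to 12.20 in the other 20 samples, and none of the 8 was below background. Within those 20 samples Map3k1 and the endothelial level had r = 0.12, and after removing each group's mean over all 24 samples r = 0.68. The same 4 samples held the largest scaling factors, with r = -0.43 between Map3k1 and the log2 scaling factor in the other 20 samples and r = -0.07 within groups. Summed astrocyte genes were at 14.17 to 14.52 in CT2A + RT-TMZ + Veh against 14.46 to 14.76 elsewhere, and neuronal genes at 17.18 to 17.35 against 16.99 to 17.20. A within-group correlation with Map3k1 was not particular to endothelial genes. It was -0.59 for neuronal genes, 0.23 for astrocyte genes and 0.61 for the 1 choroid plexus gene measured. In the other 20 samples these lists had -0.53, 0.39 and 0.12. The part of each in the Map3k1 difference was not tested. In bulk tissue, fewer cells of a type and less RNA per cell cannot be told apart.

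**Figure D2:**
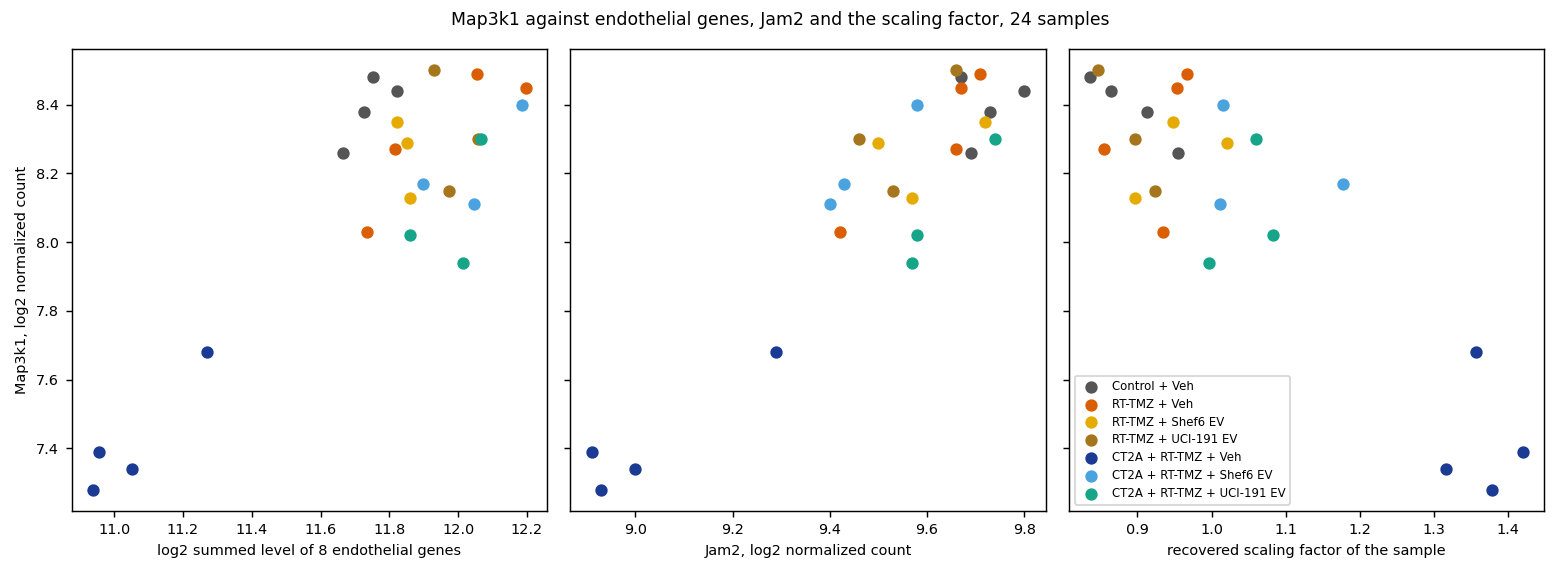
Map3k1 (log2 normalized count, vertical) against the log2 summed level of 8 endothelial genes, against Jam2 and against the scaling factor of each of the 24 samples, colored by group. The 4 CT2A + RT-TMZ + Veh samples, with endothelial levels of 10.94 to 11.27 and scaling factors of 1.32 to 1.42, lie apart from the other 20 in all 3 panels.

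The 2 MAP2K genes moved little. Map2k1 encodes MEK1, the activator of ERK, and its group means spanned 0.29. It was highest in CT2A + RT-TMZ + Veh, at 13.21, 13.07, 13.01 and 12.97 (13.07 ± 0.11, n = 4). Control + Veh samples read 12.88, 12.93, 12.88 and 12.95, all just below, in a comparison where 28.5% of probes had groups without overlap. RT-TMZ + Veh samples read 13, 12.76, 12.92 and 12.91, which overlapped. The other 4 groups covered 12.69 to 12.93, and those with a tumor were at 12.93, 12.84 and 12.76 with Shef6 EV and at 12.81, 12.69 and 12.84 with UCI-191 EV.

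Neither of those tumor groups overlapped CT2A + RT-TMZ + Veh, which lay above them, as in 31.7% (Shef6) and 24.6% (UCI-191) of probes without overlap. No Map2k1 difference passed the test. CT2A + RT-TMZ + Veh was 0.16 above Control + Veh (standard error 0.07, adjusted p = 0.122), Shef6 EV was at -0.22 from tumor-bearing vehicle mice (standard error 0.08, adjusted p = 0.127) and UCI-191 EV at -0.29 (standard error 0.09, adjusted p = 0.106). With all 7 groups in 1 fit the latter 2 passed (adjusted p = 0.0136 and 0.00327). The direction of all 3 reversed only with each sample's scaling factor divided out, at -0.46, 0.14 and 0.10. That setting undoes the scaling and moved the median of all probes by -0.62, 0.36 and 0.39. Small differences change sign under such a shift, so it does not settle the direction. Map2k1 did not overlap Control + Veh either in RT-TMZ + Shef6 EV (-0.14, standard error 0.05, adjusted p = 0.184) or in CT2A + RT-TMZ + UCI-191 EV (-0.13, standard error 0.05, adjusted p = 0.117). The former passed without RT-TMZ + Shef6 EV replicate 3 (adjusted p = 0.0418). Groups without overlap made up 18.6% and 29.7% of probes in these comparisons.

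Map2k4 encodes MKK4, which activates JNK and p38. All 24 samples lay between 11.86 and 12.27 and the 7 group means between 12.01 and 12.12. Every pair of neighbors in the order of means overlapped. Its widest difference in the comparisons made was -0.11, for RT-TMZ + Shef6 EV against RT-TMZ + Veh. Of the 675 probes with a mean above background, 1.19% had a smaller range of group means than Map2k4, against 22.2% for Map2k1 and 84.9% for Map3k1.

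Of the 3 MAP kinases, Mapk10 encodes JNK3, the JNK that is found mainly in neurons. RT-TMZ + UCI-191 EV samples read 12.97, 12.90 and 12.96 (12.94 ± 0.04, n = 3), the lowest mean. CT2A + RT-TMZ + UCI-191 EV samples read 13.24, 13.20 and 13.09 (13.18 ± 0.08, n = 3), the highest. The remaining groups lay between, at 12.94 to 13.10 in Control + Veh, 13 to 13.21 in RT-TMZ + Veh, 13.05 to 13.14 in CT2A + RT-TMZ + Veh and 12.90 to 13.09 in CT2A + RT-TMZ + Shef6 EV. RT-TMZ + Shef6 EV samples were split, with 13.28 and 13.20 in the replicates high in Mef2c and 12.91 in the third.

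Among UCI-191 EV mice, Mapk10 rose by 0.23 with a tumor compared with none (standard error 0.05, 1.18-fold higher, adjusted p = 0.0394), in a comparison where 12.8% of probes passed. The call was lost without any 1 sample except CT2A + RT-TMZ + UCI-191 EV replicate 3 (adjusted p = 0.0768 to 0.128). With the scaling factor divided out the difference was -0.0030, where the median of all probes moved by -0.24. All 3 tumor samples of this comparison belong to the 6 high in Mef2c, so the tumor and that split cannot be told apart here. Over all samples Mapk10 was at 13.09 to 13.28 in those 6 and at 12.90 to 13.21 in the other 18. In UCI-191 EV mice without tumor Mapk10 was -0.14 from RT-TMZ + Veh with no overlap (standard error 0.05, adjusted p = 0.735), where 0% of probes passed in limma (45 at an unadjusted p under 0.05, and 0 by the methods' t-test) and 6.61% did not overlap.

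Mapk14 encodes p38 alpha, the p38 kinase of microglial and neuronal stress responses. Its 24 samples lay between 9.14 and 9.45, and its group means between 9.20 and 9.38 with overlap at each step. The widest difference was -0.15, between RT-TMZ + UCI-191 EV and Control + Veh (adjusted p = 0.140). RT-TMZ + UCI-191 EV samples read 9.22, 9.25 and 9.14, all below the 9.31, 9.36 and 9.37 of RT-TMZ + Shef6 EV, a difference of -0.14 (standard error 0.06, adjusted p = 0.443). In that comparison 0% of probes passed in limma, 83 had an unadjusted p under 0.05, the methods' t-test passed 1, and 14.9% of probes did not overlap.

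Mapk12 encodes p38 gamma, known best from skeletal muscle, and lay just above the background of 20 normalized counts (4.32 on the log2 scale). Control + Veh samples read 5.29, 5.54, 5.10 and 5.42 (5.34 ± 0.19, n = 4). RT-TMZ + Veh samples read 4.86, 4.86, 4.63 and 4.98 (4.83 ± 0.15, n = 4), all below the controls. The difference was -0.51 (standard error 0.14, 1.42-fold lower, adjusted p = 0.0388), in a comparison where 17.8% of probes passed and 21.8% had groups without overlap. The same 4 RT-TMZ + Veh samples entered the comparison for which Mapk12 was singled out, so this value is not independent of that choice and is given as a description. The call held without Control + Veh replicate 3 or RT-TMZ + Veh replicate 1. It was lost without any 1 of Control + Veh replicates 1, 2 and 4 and RT-TMZ + Veh replicates 2, 3 and 4 (adjusted p = 0.059 to 0.0949).

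With EVs and no tumor, Mapk12 read 5.05, 5.42 and 5.28 in RT-TMZ + Shef6 EV (5.25 ± 0.19, n = 3), above all 4 RT-TMZ + Veh samples. The difference of 0.42 (standard error 0.15) is the one for which the study's results named the gene, and 10.3% of probes did not overlap in this comparison. Only the third replicate, at 5.28, was not among the samples high in Mef2c. No probe passed in limma (0%), 92 had an unadjusted p under 0.05, and the methods' t-test passed 0. Both counts of passing probes use an adjusted p under 0.05, whereas the study's methods name a looser cutoff for their exploratory analysis. RT-TMZ + UCI-191 EV samples read 5.13, 4.84 and 4.89 and overlapped RT-TMZ + Veh.

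Tumor-bearing groups spread widely in Mapk12. CT2A + RT-TMZ + Veh samples read 4.37, 5.51, 5.20 and 5.30, CT2A + RT-TMZ + UCI-191 EV samples 5.07, 4.95 and 5.99, and CT2A + RT-TMZ + Shef6 EV samples 4.76, 5.02 and 5.42, and all neighboring groups overlapped. For Shef6 EV with a tumor, where the study's discussion names a rise, the difference from CT2A + RT-TMZ + Veh was -0.03 (standard error 0.30). The implied counts behind these values were small: 43, 54, 36 and 51 in Control + Veh, 31, 30, 26 and 37 in RT-TMZ + Veh, 37, 45 and 38 in RT-TMZ + Shef6 EV, and 15 to 60 over all samples. Counting error alone gives such counts an SD of 0.252 on the log2 scale, against a within-group SD of 0.335 pooled over all groups. For Map3k1, with 113 to 428 counts, the same numbers were 0.0906 and 0.164. In Control + Veh and RT-TMZ + Veh the Mapk12 SDs were only 0.188 and 0.146. Counting error gave 0.196 to 0.240 and 0.237 to 0.283 for the samples of these groups. The standard error used to test that pair may therefore be too small.

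**Figure D3:**
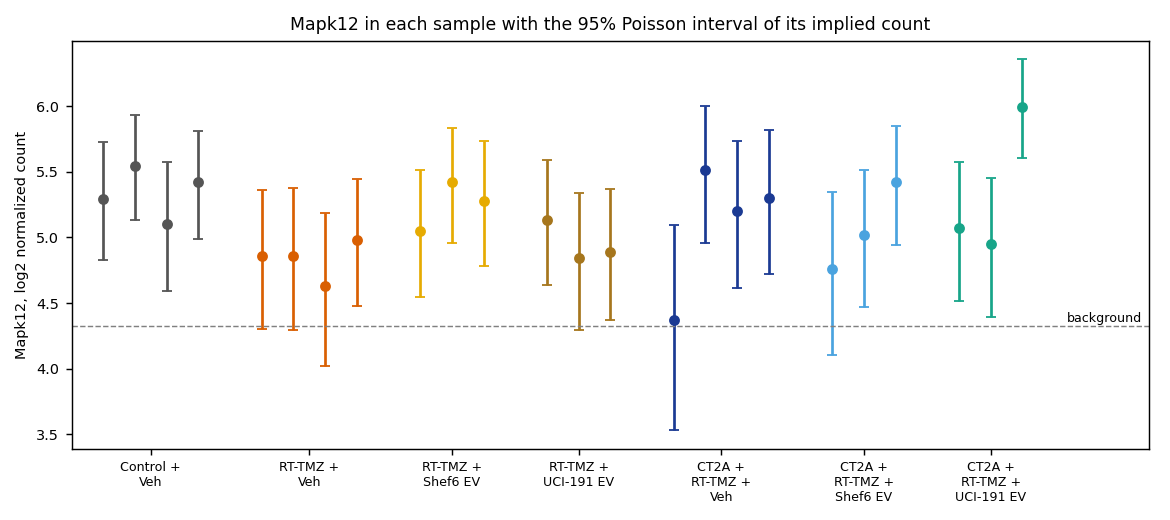
Mapk12 (log2 normalized count) in each sample by group, with the exact 95% Poisson interval of its implied count, which covers counting error only, and the background level as a dashed line. RT-TMZ + Veh samples, at 4.63 to 4.98, lie below the Control + Veh samples, at 5.10 to 5.54, but their intervals overlap.

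Over 17 comparisons the 6 genes gave 102 values, of which 6 passed the test. The 102 include the Mapk12 value given without a test, for RT-TMZ + Shef6 EV against RT-TMZ + Veh, which is not among the 6. In single comparisons 0% to 21.1% of all probes passed. Of the 102 values 78 lay within 0.2 of 0, a count not set against all probes. Map3k1 gave 4 of the 6 passing values, and Mapk10 and Mapk12 gave 1 each. The Mapk12 value, for RT-TMZ + Veh against Control + Veh, is not independent of the choice of the gene and is a description only. All 4 Map3k1 calls use the same 4 CT2A + RT-TMZ + Veh samples and are not independent of each other. In 6 of the comparisons not yet given in full no member passed: against Control + Veh, the mice without a tumor that had Shef6 EV (5.42% of probes passed) or UCI-191 EV (21%) and those with a tumor that had Shef6 EV (18%) or UCI-191 EV (13.1%), UCI-191 against Shef6 EV with a tumor (6.61%), and Shef6 EV with against without a tumor (0%, with 93 probes at an unadjusted p under 0.05 and 0 by the methods' t-test). RT-TMZ + UCI-191 EV was below Control + Veh in all 6 members, by a median of -0.09 where all probes had 0.03. Median centring, which moved the median of all probes by -0.13 here, made 5 of the 6 pass. At that setting 259 of the 757 probes passed, 160 of them lower, against 159 without it. CT2A + RT-TMZ + Shef6 EV was below Control + Veh in all 6 as well, by a median of -0.06 against 0.02. All comparisons with Control + Veh share its 4 samples.

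**Figure D4:**
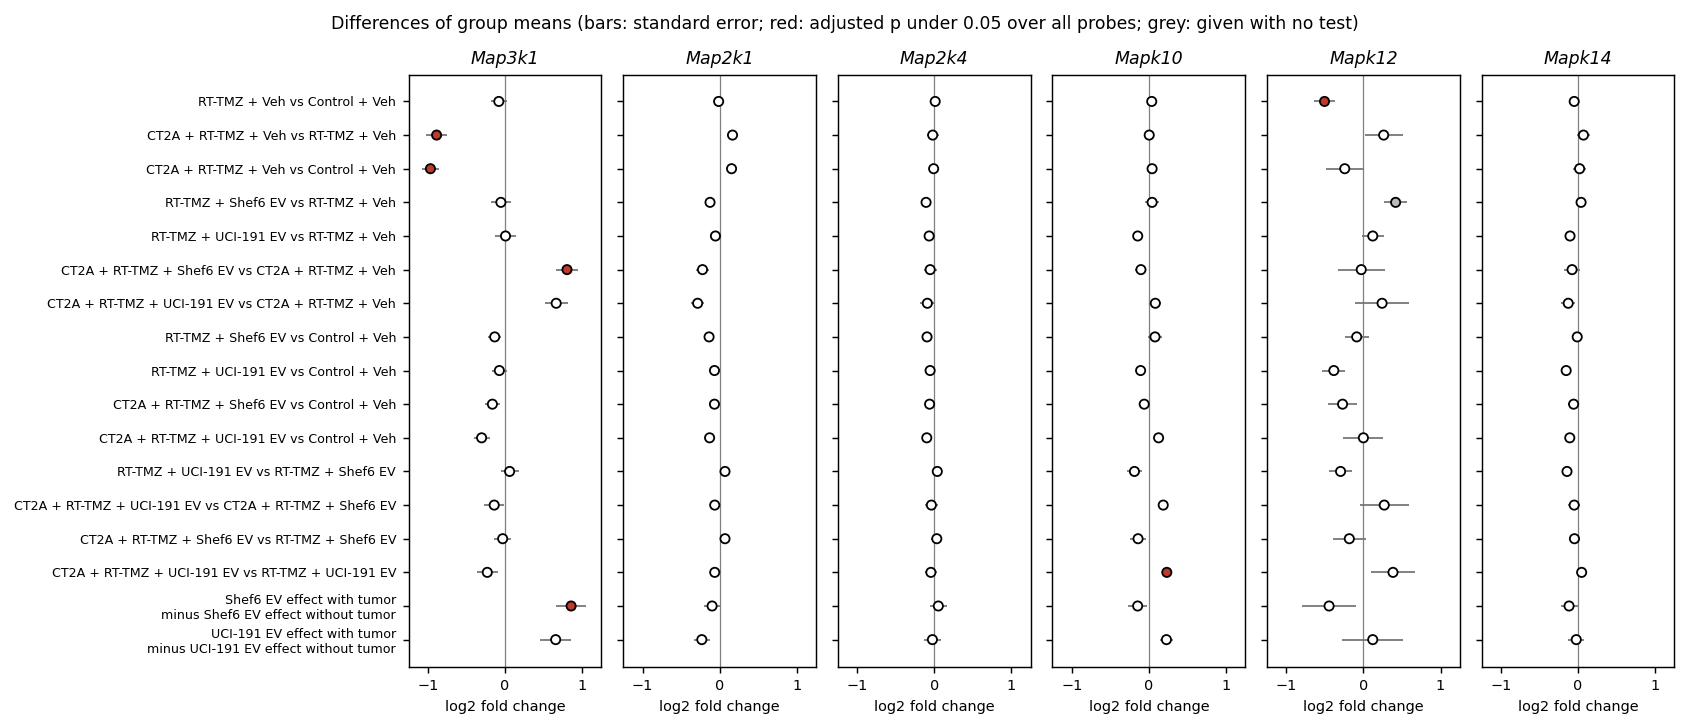
Log2 fold change of each gene in the 17 comparisons, with its standard error as a bar. Red points passed the test, the grey point is the Mapk12 value given without one, and all 6 red points belong to Map3k1, Mapk10 and Mapk12. The red Mapk12 point is given as a description only.

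The 6 genes did not share 1 pattern. Map2k1 and Mapk14 had the highest correlation of any pair over the 24 samples (r = 0.54, rho = 0.50, and r = 0.53 within groups). Map3k1 and Map2k1 had r = -0.62 over all samples but 0.10 in the 20 outside CT2A + RT-TMZ + Veh. Samples of a pair share their library and scaling, and the values are given as a description.

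Of 624 named probes above background, those most like Map3k1 over the 24 samples were Jam2 (r = 0.93), a junctional adhesion molecule of endothelium, Tie1 (r = 0.92), an endothelial receptor kinase, and Kdm4c (r = 0.92), a histone demethylase. Jam2 was at 8.91 to 9.29 in CT2A + RT-TMZ + Veh against 9.40 to 9.80 elsewhere. Tie1 was at 6.01 to 6.85 against 7.70 to 8.37. In the other 20 samples alone the correlations with Map3k1 were 0.62 for Jam2, 0.43 for Tie1 and 0.62 for Kdm4c. In all, 39 probes had r over 0.8 with Map3k1 and 14 had r under -0.8.

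The genes most like Map2k1 were Ptms (r = 0.84), which encodes parathymosin, Rps2 (0.83), a ribosomal protein gene, and Becn1 (0.82), an autophagy gene, at 0.68, 0.70 and 0.55 outside CT2A + RT-TMZ + Veh. Map2k4 went most with Syn2 (0.76), a synaptic vesicle gene, Chst8 (0.76), a sulfotransferase, and Fyn (0.70), a Src family kinase. Its correlation with Syn2 was 0.88 in the other 20 samples and 0.88 within groups. Mapk10 went most with Gadd45a (0.73), a stress-induced gene whose product can activate MAP3Ks, Nrgn (0.73), a postsynaptic protein, and Rab7 (0.73), a late endosomal GTPase. Nrgn and Mapk10 had r = 0.85 in the other 20 samples, and Mapk10 and the summed neuronal level had 0.72. For Mapk12 the leading genes were Kcnd1 (0.69), Mre11a (0.64) and Cntnap2 (0.64), which dropped to 0.45, 0.25 and 0.35 without the 2 samples farthest from the Mapk12 median. For Mapk14 they were Sting1 (0.54), Map2k1 (0.54) and Cks1b (0.54).

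Of 159 other listed genes of these cascades 35 were on the panel, with 2 further kinases among them. Braf, a MAP3K of the ERK branch, fell in CT2A + RT-TMZ + Veh compared with Control + Veh by 0.42 (standard error 0.10, adjusted p = 0.0232), from 11.58 ± 0.06 to 11.15 ± 0.20. Map3k14, the kinase NIK of the noncanonical NF-kappaB route, did not pass (-0.41, adjusted p = 0.188). Of 3 upstream genes, the growth factor receptor gene Egfr fell in the same comparison by 0.43 (adjusted p = 0.0427), while Rac1 and Rac2 did not pass. In no other comparison did a gene of either list pass.

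The 20 cytokine, receptor and adaptor genes gave 2 that rose after chemoradiotherapy, where 17.8% of all probes passed in either direction, and none that fell: Tlr2, a receptor for microbial and damage signals (1.37, adjusted p = 0.0122, from a control mean of 3.99 that lies below background), and the TNF receptor gene Tnfrsf1a (0.63, adjusted p = 0.0436). Both also rose against Control + Veh in RT-TMZ + Shef6 EV (1.21 and 0.56), in RT-TMZ + UCI-191 EV (1.12 and 0.86, with Tnf at 0.49) and in Shef6 EV mice with a tumor. The last had 5 genes that rose, in a comparison where 18% of probes passed, among them Tlr2 (1.0), Tnfrsf1a (0.73), Tnf (0.66) and the death domain adaptor gene Fadd (0.56). Tnf averaged below background in each group in which it rose. Tgfbr1, a TGF-beta receptor gene, fell by 0.74 in CT2A + RT-TMZ + Veh compared with Control + Veh, and its ligand gene Tgfb1 by 0.49 compared with RT-TMZ + Veh (adjusted p = 0.0325 and 0.0498).

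In CT2A + RT-TMZ + UCI-191 EV, Tnf rose against Control + Veh (0.63) and 3 genes of this list fell, where 13.1% of probes passed, the interleukin-1 receptor gene Il1r1 (-1.03), its partner Il1rap (-0.69) and Tgfbr1 (-0.23). Il1rap fell against CT2A + RT-TMZ + Shef6 EV too (-0.62), and against RT-TMZ + UCI-191 EV it fell (-0.51) together with Tnfrsf1a (-0.47) and Tgfbr1 (-0.25). The Shef6 EV effect on Tgfb1 differed between mice with and without a tumor, by 0.81 (adjusted p = 0.0216). All 3 CT2A + RT-TMZ + UCI-191 EV samples were high in Mef2c, and the part of that split in these values was not tested.

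The list of inhibitors and scaffolds had 3 measured genes, of which Dusp7 alone encodes an inhibitor, while the products of Gadd45a and Gadd45g can activate MAP3Ks. Gadd45g, a stress-induced gene, fell in RT-TMZ + Veh compared with Control + Veh (-0.48, adjusted p = 0.00116), and so it did in tumor-bearing mice with Shef6 EV (-0.60) or UCI-191 EV (-0.53). Dusp7, a phosphatase that inactivates ERK, fell against Control + Veh with UCI-191 EV and no tumor (-0.22) and with Shef6 EV and a tumor (-0.21). Gadd45a rose in CT2A + RT-TMZ + UCI-191 EV against both Control + Veh (0.59) and RT-TMZ + UCI-191 EV (0.57), and Dusp7 against the latter (0.28).

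Among 7 downstream transcription factors, the immediate early genes Fos and Egr1, whose transcription ERK signaling induces, fell most. Fos was at 10.23 ± 0.24 in Control + Veh (n = 4) and 8.3 ± 0.64 in RT-TMZ + Veh (n = 4), a fall of 1.93 (standard error 0.28, adjusted p = 0.00226). Compared with Control + Veh, Fos also fell in CT2A + RT-TMZ + Veh (-1.63), in mice with UCI-191 EV and no tumor (-2.07) and in mice with a tumor and Shef6 EV (-2.90), and Egr1 fell in the same 4 groups by 0.79 to 1.34 on the log2 scale. Neither passed against Control + Veh in RT-TMZ + Shef6 EV (Fos -0.38, Egr1 0.24) or in UCI-191 EV mice with a tumor (Fos -0.57, Egr1 0.17), the groups that hold 5 of the 6 samples high in Mef2c. In those 6 samples Fos was at 8.4 to 11.03 and Egr1 at 11.59 to 13.6, against 7.2 to 10.44 and 11.2 to 12.76 in the other 18, and the part of that split in these values was not tested. Jun, a substrate of JNK, fell after chemoradiotherapy (-0.30, adjusted p = 0.0270). Within tumor-bearing mice Fos fell with Shef6 EV compared with vehicle (-1.27, adjusted p = 0.0282), the direction opposite to Map3k1 in that comparison.

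Mef2c, a substrate of p38, rose in CT2A + RT-TMZ + UCI-191 EV against Control + Veh (1.38), the same EV without a tumor (1.78) and Shef6 EV with one (1.81), and Jun fell there against Control + Veh (-1.10). The samples of that group are 3 of the 6 that Mef2c itself set apart. The 47 calls made for these other genes kept their direction in all alternatives, and 38 of them passed under median centring, 21 with all groups in 1 fit and, of the 46 from pairwise comparisons, 6 by the methods' t-test. Many were lost on leaving out 1 sample, which also makes a group smaller, and the cause was not tested. Without RT-TMZ + Shef6 EV replicate 2, 0 of 3 passed. Without RT-TMZ + UCI-191 EV replicate 3, 4 of 12 passed (6 without replicate 1 or 2). For Control + Veh it was 17 of 36 without replicate 1 and 18 without replicate 3. Without RT-TMZ + Veh replicate 2, 3 or 4 the count was 4 of 8, without CT2A + RT-TMZ + Veh replicate 1 or 3 it was 4 or 3 of 8, and without any 1 of the tumor samples with EVs it was 5 to 8 of 13 (Shef6) or 10 of 16 (UCI-191).

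**Figure D5:**
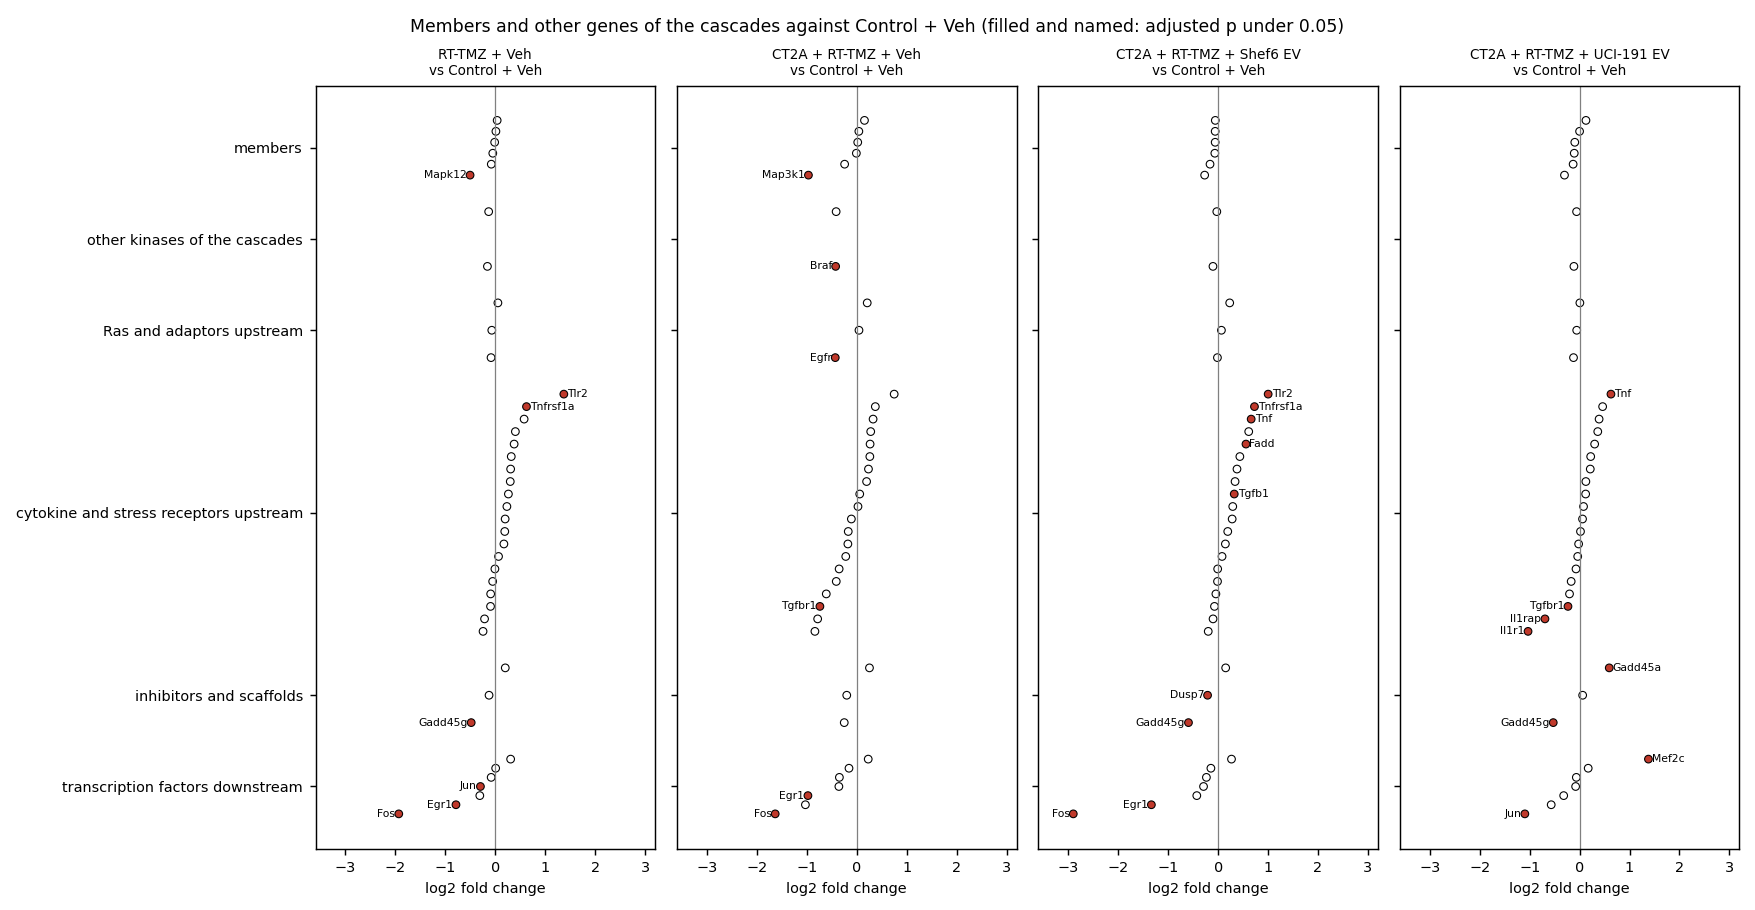
Log2 fold change against Control + Veh of the 6 members and the 35 other measured genes of the cascades, by role, in 4 groups. Filled, named points passed the test, and Fos, at -1.63 to -2.90 in the first 3 panels, lies farthest from 0, whereas most kinase genes lie near it.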

How the data were processed

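Total RNA from 24 mouse brain samples was counted with the nCounter Mouse Neuroinflammation panel. Per the study's methods, the authors normalized the counts to positive controls and then to 13 reference genes, and deposited log2 values for 757 probes (703 with a gene symbol). Each sample's lowest value is a floor, at which no member lies. The members and gene lists were chosen with earlier results of these data known.

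Groups were compared 2 at a time in limma 3.58.1 (R 4.3.3; lmFit, eBayes with trend), with Benjamini-Hochberg adjustment over all 757 probes at 0.05. The methods' t-test was read at 0.05 too, whereas the study's methods name a looser cutoff for their exploratory analysis. The script was tested on simulated data. Every same-numbered correlation lay over 0.1 only among RT-TMZ + Veh and both Shef6 EV groups. There the replicate number as a block changed no member count in a 2-group comparison. Whether the numbers mark a pairing was not tested. In all, 15 pairwise comparisons and 2 contrasts of EV effects were fitted. Low log2 values fell on a grid of whole counts (99 to 100% within 0.15 of a whole count), which gave each sample's scaling factor and implied counts. Intervals are exact Poisson. Background was 20 normalized counts. Named were all members, up to 4 passing genes per list and comparison with the largest change, and the 3 genes most correlated with each member; Mef2c as a split of samples and the contrast with 20 other samples were chosen after values were seen. Alternatives were median centring, quantile normalization, scaling to the panel total, a pseudocount of 20, only probes above background, the methods' t-test, 1 fit over all groups, no mean trend, the replicate number as a block, leaving out each sample, and, added after seeing the data, dividing out the scaling factor.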

Additional observations from a re-analysis of the deposited data

Results flagged for a closer look

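The Shef6 EV effect on Map3k1 differed between mice with and without a tumor by 0.86 on the log2 scale (adjusted p = 0.0250), which the test of the difference itself marked. The CT2A + RT-TMZ + Veh samples carry this value, with Map3k1 at 7.28 to 7.68 against 7.94 to 8.50 in the other 20 samples, and a vehicle group in each arm enters it. In 18 sets of 4 samples (a member in a group) no single sample stood far from the other 3 by Dixon's ratio, which marks about 1 in 20 such sets by chance.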

How the results depend on the processing

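Counts of members passing the test were recomputed 300 times under other settings, and 231 stayed within 1.5 times the reported count. The fall of Map3k1 in CT2A + RT-TMZ + Veh against Control + Veh kept its call in every setting run. Chemoradiotherapy alone (RT-TMZ + Veh against Control + Veh) went from 1 member to 0 with all groups in 1 fit, with the methods' t-test and with the scaling factor divided out. The tumor comparison (CT2A + RT-TMZ + Veh against RT-TMZ + Veh) went from 1 to 2 with all groups in 1 fit and to 0 with the t-test. With the factor divided out it went to 5, where 607 of the 757 probes passed. Against Control + Veh that setting gave 6 members, where 543 probes passed. Such counts are not particular to the members. Shef6 EV against vehicle with a tumor went from 1 to 0 under median centring, quantile normalization and the t-test. It went to 2 with all groups in 1 fit and to 3 with the factor divided out (297 probes passed). UCI-191 EV against vehicle with a tumor went from 0 to 2 with all groups in 1 fit and 3 with the factor divided out (333 probes). Against Control + Veh, RT-TMZ + UCI-191 EV went from 0 to 5 under median centring (259 of 757 probes passed) and 3 under quantile normalization (179). The Shef6 EV and UCI-191 EV groups with a tumor went from 0 to 1 each under quantile normalization (120 and 76 probes). With the factor divided out they went to 4 and 3 (277 and 163 probes). CT2A + RT-TMZ + UCI-191 EV against RT-TMZ + UCI-191 EV went from 1 to 0 under quantile normalization, scaling to the panel total, all groups in 1 fit, the t-test and no mean trend. With the factor divided out it went to 3 (306 probes). The Shef6 EV contrast between mice with and without a tumor went from 1 to 0 under median centring and quantile normalization. With the factor divided out it went to 2 (319 probes). The UCI-191 EV contrast went from 0 to 1 with all groups in 1 fit and to 2 with the factor divided out (215 probes). Leaving out 1 sample gave 0 to 1 members in each comparison whose count moved. A member passed only on leaving out Control + Veh replicate 4 (Mapk10, RT-TMZ + UCI-191 EV against Control + Veh), RT-TMZ + Shef6 EV replicate 3 (Mapk10, UCI-191 against Shef6 EV without a tumor), CT2A + RT-TMZ + UCI-191 EV replicate 3 (Map3k1, against Control + Veh) or CT2A + RT-TMZ + Veh replicate 4 (Map3k1, the UCI-191 EV contrast), beside those named above.

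With the factor divided out, Map2k1 reversed in CT2A + RT-TMZ + Veh against Control + Veh (-0.46), in Shef6 EV (0.14) and UCI-191 EV (0.10) against vehicle with a tumor, and Mapk10 between UCI-191 EV mice with and without a tumor (-0.0030). That setting moved the median of all probes by up to -0.62 (CT2A + RT-TMZ + Veh against Control + Veh), and median centring by up to -0.34 (the Shef6 EV contrast); the cause of each lost call was not tested.

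In 3 of 21 pairs of groups every same-numbered pair of samples correlated over 0.1. RT-TMZ + Veh did so with RT-TMZ + Shef6 EV (0.58, 0.32 and 0.47) and with Shef6 EV mice with a tumor (0.56, 0.15 and 0.46). Both Shef6 EV groups did so with each other (0.46, 0.20 and 0.27). Over all pairs of groups the median correlation was 0.004 for the same number and 0.002 for different numbers. Some different-numbered samples correlated too, such as Control + Veh replicate 4 with CT2A + RT-TMZ + Veh replicate 2 (0.54). Whether the numbers mark a pairing was not tested. In the comparisons made within those 3 pairs the replicate block left the count of members at 0. The replicate block gave 0 members in place of 1 for RT-TMZ + Veh against Control + Veh, CT2A + RT-TMZ + Veh against RT-TMZ + Veh and CT2A + RT-TMZ + UCI-191 EV against RT-TMZ + UCI-191 EV, and 1 in place of 0 for RT-TMZ + UCI-191 EV against Control + Veh, and moved no other count of members. Of the 47 calls for other genes 23 passed under the block. With 3 or 4 mice a group and 15 to 60 counts, Mapk12 is the least precise member.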
